A study of Mus musculus with 6 samples.

Results

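The genes described here are the replication-type histone genes that sit in clusters in the mouse genome, read out in polyadenylated RNA of whole testis on postnatal day 9. They were taken by name: every protein-coding gene whose GENCODE M21 symbol begins with Hist1h, Hist2h, Hist3h or Hist4h, which gave 67 of the 54532 genes in the deposited table. A further 3 histone symbols of these clusters are pseudogenes and were left out. By class, 6 members encode linker histone H1, 18 encode H2A, 18 encode H2B, 12 encode H3 and 13 encode H4. The Hist1 cluster on chromosome 13 holds 54 of them, chromosome 3 holds 10 (Hist2), chromosome 11 holds 2 (Hist3) and chromosome 6 holds 1 (Hist4). Testes of Ppp6r3 cKO mice (3 libraries) were compared with testes of wild-type mice (3 libraries). The targeted gene, Ppp6r3, codes for one of the subunits that direct protein phosphatase 6 to its substrates. Which Cre driver was used, in which cells it acts and which exons were removed are not stated in the labels. Nor is it stated whether the 3 samples of a group are separate animals, so the p-values measure spread among samples that may be technical only.

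Histone octamers of H2A, H2B, H3 and H4 wrap DNA into nucleosomes, and H1 binds where the DNA enters and leaves. The clustered genes supply most of this protein while DNA is copied in S phase. Their pre-mRNAs are not spliced as a rule and are cut after a conserved stem-loop, with the stem-loop binding protein SLBP and the U7 small nuclear RNP, so the mature mRNA usually has no poly(A) tail. Oligo(dT) selection therefore captures only tailed forms, such as those made in some differentiated cells from a poly(A) signal further downstream, and whatever untailed RNA is carried along. In the male germ line, testis variants take over from the usual histones: H1t (Hist1h1t) in pachytene spermatocytes, and TH2B (Hist1h2ba) and TH2A (Hist1h2aa) in cells entering and passing through meiosis.

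The transcript ends bear on what such libraries can hold, so the stem-loops of the members named most often are shown first. An exact match to the 16-base histone stem-loop consensus followed the coding sequence in 45 of the 67 annotated transcripts. Of the 22 without one, 17 had fewer than 50 annotated bases of 3' UTR, and for most of these the annotation stops before a stem-loop could be read. Hist1h1a has 48 such bases, in which a stem-loop could fit, and no exact match was found. Over all 21951 protein-coding genes, the consensus occurred in 70 (0.319%), and 46 of those were members. The sequences are from GENCODE M21 transcripts on GRCm38, written 5' to 3' on the gene's strand, with the stem-loop in capitals and 5 flanking bases on each side.
Hist1h1c (H1.2), chr13:23739507-23739532, plus strand: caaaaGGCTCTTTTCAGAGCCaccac
Hist3h2a (H2A), chr11:58955167-58955192, plus strand: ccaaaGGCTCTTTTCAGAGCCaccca
Hist1h2bj (H2B), chr13:22043633-22043658, plus strand: ccaaaGGCTCTTTTCAGAGCCacgca
Hist1h1t (H1t), chr13:23696520-23696545, plus strand: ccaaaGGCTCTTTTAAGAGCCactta
Hist1h3c (H3), chr13:23745042-23745067, minus strand: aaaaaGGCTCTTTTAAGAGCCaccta
Hist1h4i (H4), chr13:22040961-22040986, minus strand: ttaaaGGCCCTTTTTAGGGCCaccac
The first 3 share the same stem-loop letters, found in 25 members and in no H4 gene. Hist1h1t and Hist1h3c share another form, found in 6 members, and that of Hist1h4i occurs in 2, both H4 genes. What follows the stem-loop varied more: the annotated transcript ran on for 840 bases in Hist1h1c, 1643 in Hist3h2a, 330 in Hist1h4i and 185 in Hist1h1t, against 74 in Hist1h3c and 23 in Hist1h2bj. A poly(A) signal (AATAAA or ATTAAA) lay within the last 40 bases of 17 of the 67 transcripts, and 13 of these 17 also carried the stem-loop upstream of it.

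The libraries were of similar depth, with 15970908 to 16606868 fragments inferred from the values and 25841 to 26642 genes above 0. Levels are in FPKM, the fragments of a gene scaled by its exon length and by the depth of the library, and the fragments of each gene were recovered from them. Ppp6r3 had 15.8, 15.3 and 14.9 FPKM in the Ppp6r3 cKO libraries, against 20.8 to 21.3 FPKM in the wild-type libraries, so it was lower in every knockout library and still present (log2 fold change -0.45, SE 0.042, adjusted p = 0.000697 by limma). Germ cell markers (summed FPKM 306 to 337 in Ppp6r3 cKO and 376 to 395 in wild type) and Sertoli markers (469 to 514 and 459 to 469) were abundant, as the label testis implies, and epididymis markers were at or near 0 (0 to 0.286 and 0 to 0.0926).

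Few clustered histone genes were measured well. Summed over all 67, the members held 1047, 984 and 1076 fragments in the Ppp6r3 cKO libraries, against 1063, 1000 and 969 in the wild-type libraries. Scaled to 1000000 fragments of the library, that is 63.9, 61.6 and 66.7 in Ppp6r3 cKO and 64.0, 60.3 and 60.7 in wild type, so the groups overlapped. For comparison, the 20 histone variant genes outside the clusters that were found in the table, most of which make ordinary polyadenylated mRNAs, summed to between 1050 and 1080 FPKM in Ppp6r3 cKO and between 1070 and 1090 in wild type, while the 67 clustered genes summed to 56.2 ± 2.94 FPKM in Ppp6r3 cKO and 58.3 ± 2.79 in wild type (SD, n = 3 each). A mean above 1 FPKM was reached by 12 members and a mean above 10 by 1, Hist1h1c.

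These fragments came from a handful of genes. Hist1h1c alone held 29.2% of the 6139 member fragments, and Hist1h1c, Hist2h2be, Hist1h2bc, Hist3h2a and Hist1h4i together held 74.9%. The filter of at least 10 fragments in at least 3 libraries let 12 members into the test, and they held 88.1%. Of the 55 members that did not meet it, 48 had at least 1 fragment, 28 of them with 10 to 51 in all 6 libraries together, and 7 were listed at 0 throughout. The untested members summed to 125, 106 and 111 fragments in the Ppp6r3 cKO libraries, against 150, 127 and 114 in the wild-type libraries.

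Among the 12 tested members, Hist1h1c and Hist1h4i rose in Ppp6r3 cKO testes, Hist1h2ba fell, and 9 were not called (limma on log2(FPKM + 0.1), Benjamini-Hochberg over 17653 genes, threshold 0.05). Over all genes tested, 7.66% rose and 7.84% fell, and with 12 members the counts of 2 and 1 are too small to set the histone genes apart from that. The median log2 fold change was 0.01 over the 12 members and 0.003 over all genes tested. All 3 Ppp6r3 cKO libraries lay above all 3 wild-type libraries for 3 of the 12 (Hist1h1c, Hist1h4i and Hist1h3h), which 18.8% of all genes tested did, and below them for 1 (Hist1h2ba), which 18.1% did. Hist1h2ba met this filter through its wild-type libraries alone, so the count of 1 that fell lends no support to a fall of the set. In whole testis, fewer cells of a type and less RNA per cell cannot be told apart.

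**Figure D1:**
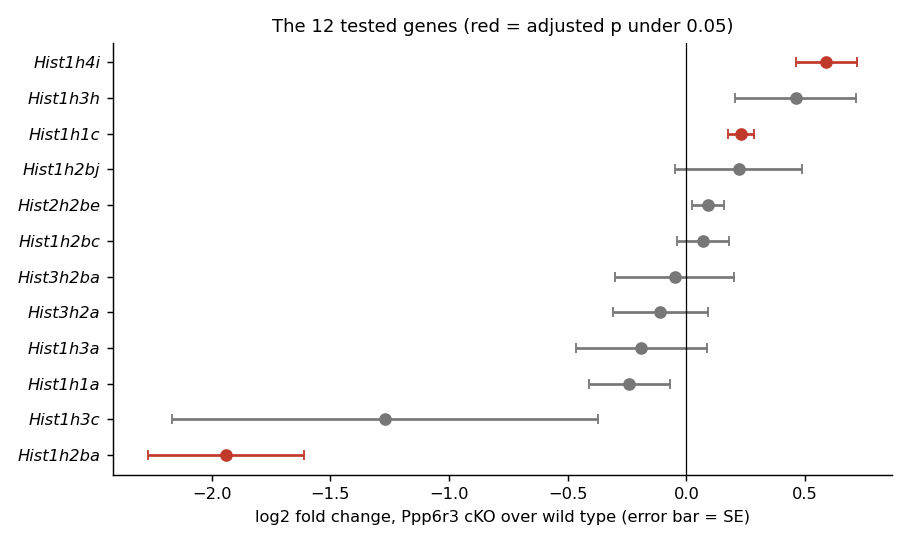
Log2 fold change of Ppp6r3 cKO over wild type on the log2(FPKM + 0.1) scale (horizontal axis) for the 12 tested members, points with SE from limma. Hist1h4i (0.59) and Hist1h1c (0.23) in red lie to the right of 0 and Hist1h2ba (-1.94) to the left, and the 9 grey members had an adjusted p above the threshold.

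Linker histones were led by Hist1h1c, which encodes H1.2, a somatic H1 subtype found in most tissues. Hist1h1c (ENSMUSG00000036181, a single exon at chr13:23738808-23740367) had 13.7, 12.4 and 12.1 FPKM in the Ppp6r3 cKO libraries, from 350, 309 and 304 fragments, against 10.7, 10.9 and 11.0 FPKM in the wild-type libraries, from 276, 281 and 273 fragments. The wild-type libraries were close together and every knockout library lay above them. The rise was 0.23 on the log2 scale (SE 0.0567, adjusted p = 0.0312, limma), or 1.18-fold between the means. The call was lost when Ppp6r3 cKO library 2 (adjusted p = 0.0555) or wild-type library 1 (0.0893), 2 (0.0889) or 3 (0.0797) was left out, with the fold change still positive. It was also lost with voom on recovered fragments (0.07) and with no filter on low values (0.0806).

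Hist1h1a, encoding H1.1, was the other H1 gene with enough fragments. It had 27, 18 and 26 fragments in the Ppp6r3 cKO libraries and 30, 24 and 31 in the wild-type libraries, and the groups overlapped (log2 fold change -0.24, SE 0.171, adjusted p = 0.378, limma). The genes for H1.5 (Hist1h1b), H1.3 (Hist1h1d) and H1.4 (Hist1h1e) had at most 5 fragments in any library and were not tested. Hist1h1b had 3, 1 and 3 fragments in Ppp6r3 cKO and 0, 2 and 0 in wild type, Hist1h1d 3, 0 and 3 against 2, 2 and 4, and Hist1h1e 4, 4 and 1 against 5, 2 and 2. None of these 3 separated the groups. Summed over the class, H1 reached 16.3, 14.1 and 14.6 FPKM in Ppp6r3 cKO and 13.4, 13.4 and 13.8 FPKM in wild type, most of it from Hist1h1c.

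The testis linker histone H1t (Hist1h1t, ENSMUSG00000036211) was at the limit of detection. It had 0 fragments in all 3 Ppp6r3 cKO libraries, against 2, 5 and 2 fragments in the wild-type libraries (0.2 FPKM on average). The groups do not overlap, but the gene was not tested. An allowance of 3 fragments over the knockout group, with the wild-type count taken as exact, gave a 2.96-fold lower level for the same depth. This figure does not cover counting error in the wild-type fragments or spread among samples, so the difference may be smaller. None of the Hist1h1t transcript was shared with another gene over a window of 100 bases.

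H2A was the class with the lowest level relative to its number of genes. Each of its 18 members overlaps another annotated gene, as few members of the other classes do. How reads in such overlaps were counted is not given in the sources used here, and its part in the low level was not tested. Its 18 members summed to 3.72, 4.84 and 4.74 FPKM in the Ppp6r3 cKO libraries, against 5.40, 6.82 and 7.05 FPKM in the wild-type libraries, or 4.43 ± 0.617 and 6.42 ± 0.893 (SD, n = 3 each). All 3 knockout sums lay below all 3 wild-type sums on this scale, in which a fragment of a short gene weighs more. Counted as fragments the groups overlapped, with 86, 108 and 140 in Ppp6r3 cKO and 126, 142 and 129 in wild type. The difference of -1.99 FPKM rests on genes with few fragments: it was -0.137 FPKM for Hist3h2a, the 1 tested H2A gene, and the 17 untested genes summed to 15, 18 and 8 fragments in Ppp6r3 cKO and 21, 32 and 32 in wild type.

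Hist3h2a, which lies outside the large cluster on chromosome 11 and encodes an H2A protein, gave most of the H2A fragments. It had 71, 90 and 132 fragments in the Ppp6r3 cKO libraries and 105, 110 and 97 in the wild-type libraries, and the knockout libraries spread on both sides of the wild-type ones (log2 fold change -0.11, SE 0.2, adjusted p = 0.749, limma). Hist3h2a overlaps Trim17 and Gm44313, and whether the counting used strand is not given in the sources used here. Their reads cannot be told apart. By mean level the next H2A genes were Hist1h2aa and Hist1h2ao. Hist1h2aa, encoding TH2A, had 6, 3 and 1 fragments in Ppp6r3 cKO and 1, 3 and 5 in wild type, with the groups overlapping. Hist1h2ao, a canonical H2A gene, had 1, 1 and 1 fragments in Ppp6r3 cKO and 7, 4 and 8 in wild type, every knockout library below every wild-type one. It did not meet the filter, and 92.7% of its 100-base windows also occur in transcripts of other genes, so how many of these fragments are its own is uncertain.

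H2B gave the highest class sum: 22.7, 19.8 and 23.6 FPKM in the Ppp6r3 cKO libraries and 26.5, 23.1 and 24.1 FPKM in the wild-type libraries, overlapping between the groups. Hist1h2bc and Hist2h2be, both encoding H2B proteins of somatic cells, led it. Hist1h2bc had 6.28, 6.60 and 8.04 FPKM in Ppp6r3 cKO and 7.03, 7.04 and 5.80 FPKM in wild type (log2 fold change 0.07, SE 0.11, adjusted p = 0.708, limma). Hist2h2be was the steadiest member, at 4.77, 4.70 and 4.40 FPKM in Ppp6r3 cKO and 4.44, 4.21 and 4.40 FPKM in wild type (log2 fold change 0.09, SE 0.0669, adjusted p = 0.42, limma). Neither separated the groups. Hist1h2bj had 34, 21 and 40 fragments in Ppp6r3 cKO and 33, 20 and 28 in wild type, and Hist3h2ba had 23, 20 and 16 against 24, 27 and 13, again with overlap in both.

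**Figure D2:**
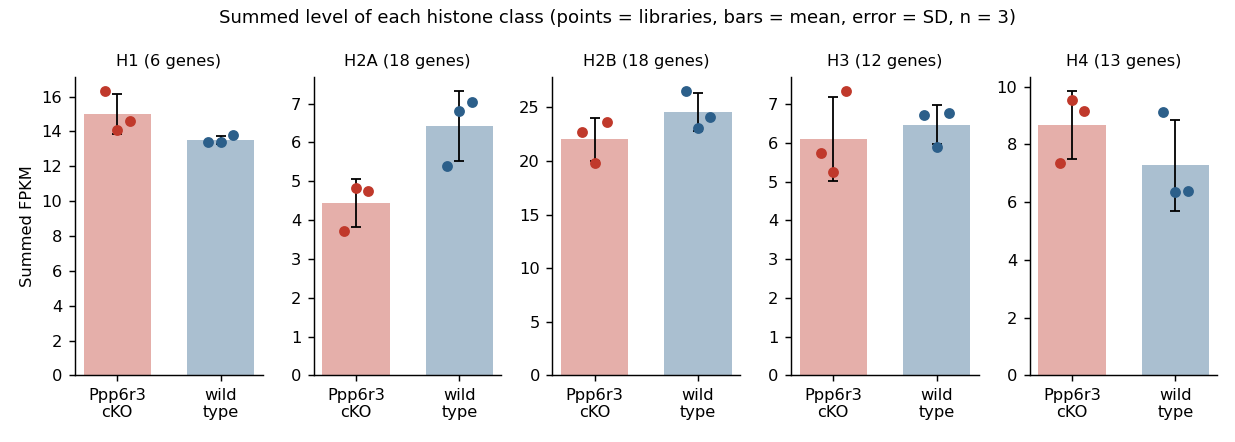
Summed FPKM of each histone class (vertical axes, each starting at 0) in the 3 Ppp6r3 cKO and 3 wild-type libraries, points for libraries, bars for means and error bars for SD. The groups separate in H1, higher in Ppp6r3 cKO (15.0 against 13.5 FPKM), and in H2A, lower in Ppp6r3 cKO (4.43 against 6.42 FPKM), and overlap in H2B, H3 and H4. Counted as fragments rather than FPKM, H2A overlaps too (86 to 140 in Ppp6r3 cKO and 126 to 142 in wild type).

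The testis H2B gene was lower in Ppp6r3 cKO. Hist1h2ba (ENSMUSG00000050799, a single exon at chr13:23933773-23934156) encodes TH2B, which replaces much of the usual H2B in spermatocytes. It had 1.11, 1.30 and 0.645 FPKM in the Ppp6r3 cKO libraries, from 7, 8 and 4 fragments, against 3.29, 3.14 and 6.36 FPKM in the wild-type libraries, from 21, 20 and 39 fragments. Every knockout library lay below every wild-type one, and wild-type library 3 stood well above the other wild-type libraries. The log2 fold change was -1.94 (SE 0.327). Because the filter let the gene in only through the group where it is high, tests under other filters are given. With no filter its adjusted p was 0.0292, against 0.0102 with the filter used elsewhere (limma). With a filter on the mean over all 6 libraries it was 0.0094 (limma). Each knockout library held fewer than 10 fragments of the gene, so it met that filter through wild type as well. The means were 1.02 ± 0.338 FPKM in Ppp6r3 cKO and 4.26 ± 1.82 FPKM in wild type (SD, n = 3 each), a ratio of 0.239. Without any 1 wild-type library the gene no longer met the filter. Under the filter on the mean of at least 10 fragments, combined with leaving out a library after seeing the data, the log2 fold change was between -2.11 and -1.61 with each wild-type library left out (adjusted p 0.0165 to 0.0221, limma). Here too the gene met the filter through wild type.

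Hist1h2ba and Hist1h2aa lie head to head, with 305 bases between their annotated transcripts. The promoter window of Hist1h2ba runs from 250 bases before to 50 after the annotated start (RefSeq on GRCm38.p6, chr13:23934107-23934406, minus strand). It is shown because it takes in most of the bases between the pair, whose fragments differ. The window ends before the start of Hist1h2aa and cuts the TATA box at position -32 of that gene. Its last 50 bases begin with the start codon of Hist1h2ba, so its annotated start leaves out any 5' UTR. Capitals mark the octamer ATTTGCAT, the CCAAT box and the TATA box TATAAA, each searched on both strands.
Hist1h2ba promoter: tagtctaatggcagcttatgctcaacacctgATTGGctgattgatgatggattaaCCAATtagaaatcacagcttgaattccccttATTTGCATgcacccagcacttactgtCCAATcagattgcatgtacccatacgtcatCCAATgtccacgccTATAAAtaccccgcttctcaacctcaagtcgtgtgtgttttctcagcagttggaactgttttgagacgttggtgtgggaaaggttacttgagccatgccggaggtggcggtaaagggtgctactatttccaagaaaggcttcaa
The octamer starts at position -164 from the annotated start of Hist1h2ba and lies on the other strand at position -124 from that of Hist1h2aa. The RefSeq start of Hist1h2aa lies before its start codon, so these distances are not counted from like points. Among the 62 members with a promoter in RefSeq, the octamer was in 13, against 1.75% of all 27025 promoter windows of this length, and all 13 were H2A (7 of 18) or H2B genes (6 of 16). CCAAT was in 53 of the 62, against 37.9% of all windows, and TATAAA in 35 of the 62, against 14.2%. H4 promoters held CCAAT in 3 of 12. These are matches of letters and say nothing of which factors bind.

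Most genes of meiotic entry fell in the same libraries in which Hist1h2ba was low and Hist1h1t was listed at 0. Of 24 meiotic entry genes and spermatogenic chromatin factors, 20 were tested, 17 fell and 0 rose (0 also at an unadjusted p under 0.05 and by voom), with a median log2 fold change of -0.83 against 0.003 over all genes. Over all genes tested, 7.66% rose and 7.84% fell. The summed FPKM of the 24 was 340 to 346 in Ppp6r3 cKO and 627 to 635 in wild type. Meiob, a single-stranded DNA binding protein of meiotic recombination (log2 fold change -2.10, adjusted p = 0.00014), Spo11, which makes the meiotic DNA breaks (-1.80, adjusted p = 0.000188), and Prdm9, a histone methyltransferase that places them (-1.43, adjusted p = 0.000961, all by limma), fell most. Of 6 germ cell markers 4 fell and Ddx4 and Dppa3 were not called, of 4 markers of undifferentiated spermatogonia 2 rose (summed FPKM 29.7 to 31.9 in Ppp6r3 cKO and 21.6 to 25.0 in wild type), and of 4 markers of differentiating spermatogonia 2 rose and 1 fell. The part of these shifts in the values of Hist1h2ba and Hist1h1t was not tested.

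Markers of somatic and blood cells also differed, where 7.66% of all genes tested rose and 7.84% fell. All 4 endothelial markers rose (summed FPKM 29.1 to 33.5 in Ppp6r3 cKO and 19.4 to 21.2 in wild type), as did 3 of 4 macrophage markers (96.0 to 102 and 61.4 to 71.1), 2 of 6 Sertoli markers (469 to 514 and 459 to 469) and 1 of 5 Leydig markers (190 to 193 and 171 to 178). All 3 erythroid markers fell (178 to 204 in Ppp6r3 cKO and 289 to 327 in wild type), and 2 of 3 peritubular myoid markers did so too (492 to 521 and 583 to 610). Their part in the changes of Hist1h1c and Hist1h4i was not tested.

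H3 genes were low and none was called. Summed FPKM was 5.73, 5.24 and 7.33 in the Ppp6r3 cKO libraries and 6.73, 5.89 and 6.78 in the wild-type libraries. Hist1h3h, Hist1h3a and Hist1h3c, all encoding canonical H3, had the highest means. Hist1h3h had 15, 13 and 14 fragments in Ppp6r3 cKO and 13, 13 and 6 in wild type (log2 fold change 0.46, SE 0.256, adjusted p = 0.262, limma). Its groups just separated on the FPKM scale, but 92.0% of its 100-base windows occur in transcripts of other genes. Hist1h3a had 9, 16 and 18 fragments in Ppp6r3 cKO and 14, 14 and 21 in wild type, and its groups overlapped. Hist1h3c varied most between libraries of a group, with 11, 1 and 17 fragments in Ppp6r3 cKO and 23, 10 and 23 in wild type (log2 fold change -1.27, SE 0.896, adjusted p = 0.399, limma). The untested Hist1h3d had 7, 3 and 2 fragments in Ppp6r3 cKO and 1, 1 and 0 in wild type, with no overlap, and is named after its values were seen.

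**Figure D3:**
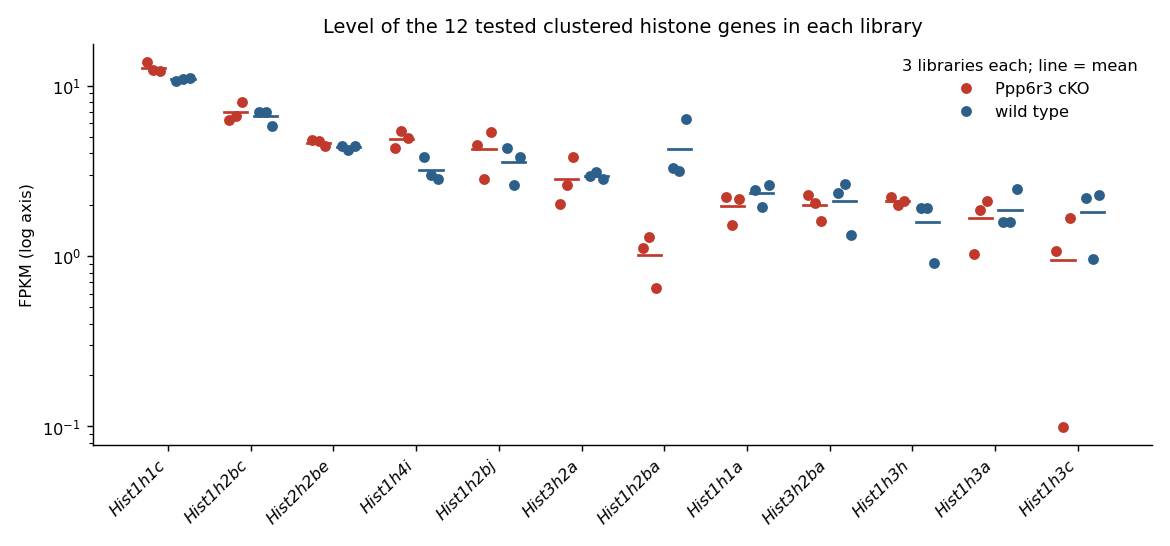
FPKM on a log axis (vertical) of the 12 tested members in each library, ordered by mean level, with Ppp6r3 cKO left of wild type and a line at each group's mean. Hist1h1c lies highest at 12.1 to 13.7 FPKM in Ppp6r3 cKO and 10.7 to 11.0 in wild type, and the lowest point is Ppp6r3 cKO library 2 of Hist1h3c at 0.0993 FPKM.

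Of the H4 genes, which supply the core histone that pairs with H3, Hist1h4i carried most of the signal. Hist1h4i (ENSMUSG00000060639, a single exon at chr13:22040636-22041362) had 4.28, 5.42 and 4.94 FPKM in the Ppp6r3 cKO libraries, from 51, 63 and 58 fragments, against 3.81, 2.98 and 2.84 FPKM in the wild-type libraries, from 46, 36 and 33 fragments. Every knockout library lay above every wild-type one. The rise was 0.59 on the log2 scale (SE 0.129, adjusted p = 0.0195, limma), or 1.52-fold between the means. The call was lost without Ppp6r3 cKO library 2 (adjusted p = 0.0576) or 3 (0.0546) and without wild-type library 2 (0.0677) or 3 (0.0664). It was also lost with voom (0.0508) and with no filter (0.064). The next H4 genes by mean level did not meet the filter: Hist1h4k had 0, 7 and 4 fragments in Ppp6r3 cKO and 7, 6 and 4 in wild type, and Hist1h4h had 1, 4 and 7 against 6, 2 and 3. Neither separated the groups. Hist1h4m, named after its values were seen, had 3, 0 and 3 fragments in Ppp6r3 cKO and 6, 4 and 3 in wild type. Ppp6r3 cKO libraries 1 and 3 thus tied with wild-type library 3. In FPKM it had 0.455, 0 and 0.462 in Ppp6r3 cKO and 0.899, 0.600 and 0.467 in wild type. Every knockout library lay below every wild-type one on that scale, where only library depth broke the tie. The H4 sum was 7.35, 9.53 and 9.15 FPKM in Ppp6r3 cKO and 9.11, 6.34 and 6.38 FPKM in wild type, so it overlapped through wild-type library 1.

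**Figure D4:**
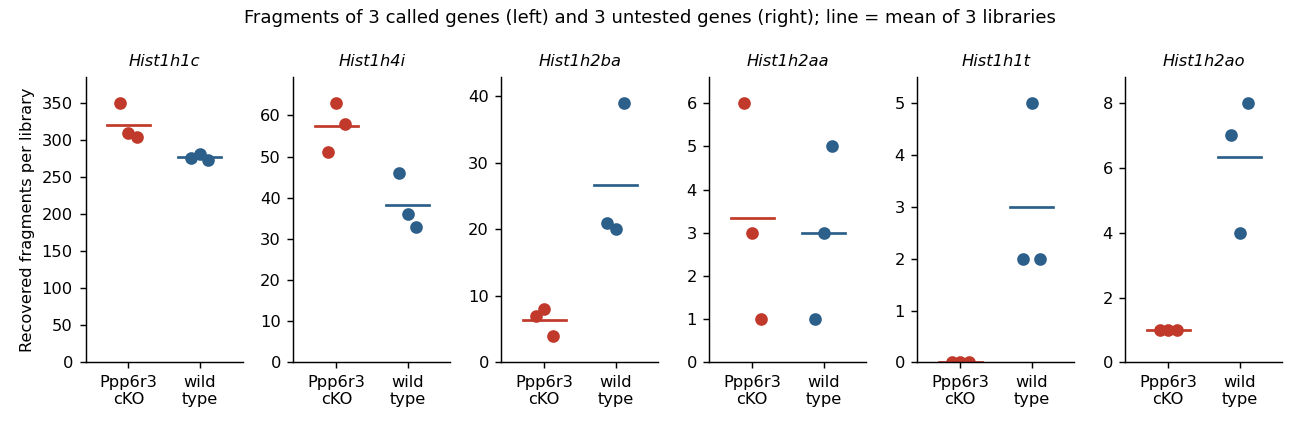
Recovered fragments per library (vertical axes, each starting at 0) of the 3 called members Hist1h1c, Hist1h4i and Hist1h2ba and of 3 untested ones, with Ppp6r3 cKO left of wild type and a line at each group's mean. Hist1h2aa overlaps between the groups, while Hist1h1t (0 in each Ppp6r3 cKO library against 2 to 5 in wild type) and Hist1h2ao (1 against 4 to 8) do not.

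Members with and without an annotated poly(A) signal were both found at high and at low levels. Of the 12 members above 1 FPKM, 5 had a signal and 7 did not, and the median level was 0.172 FPKM with a signal and 0.201 FPKM without. The 17 transcripts with AATAAA or ATTAAA in their last 40 bases held 67.2% of the member fragments, a share that also follows transcript length, and 5 of them were tested (Hist1h1c, Hist2h2be, Hist3h2a, Hist1h4i and Hist3h2ba), including both members that rose. These 17 summed to 28.8, 28.9 and 28.7 FPKM in the Ppp6r3 cKO libraries, against 26.1, 25.5 and 24.1 FPKM in the wild-type libraries, with no overlap. Without Hist1h1c the other 16 summed to 15.1, 16.5 and 16.6 FPKM in Ppp6r3 cKO and 15.4, 14.6 and 13.1 FPKM in wild type, which overlap. The other 50 summed to 27.0, 24.7 and 30.7 FPKM in Ppp6r3 cKO and 35.0, 30.1 and 34.0 FPKM in wild type, with overlap. Likewise, the 23 transcripts with 100 or more bases after the stem-loop held 51.8% of the fragments and the 22 with fewer held 9.59%. Hist1h1c alone held 1793 of the 3182 fragments of these 23. The median level went the other way, at 0.172 FPKM for the 23 and 0.257 FPKM for the 22. Of the 17, 12 were not tested, among them Hist1h1t. Of the 12 tested members, 7 had no signal: Hist1h2bc, the second highest at a mean of 6.80 FPKM, Hist1h2bj, Hist1h2ba, Hist1h1a, Hist1h3h, Hist1h3a and Hist1h3c. The annotation of Hist1h2ba and of Hist1h3h ends with the coding sequence, so the ends that were captured are not known. That of Hist1h1a stops 48 bases after it. The 50 members without a signal therefore include some whose annotation stops too early for a signal to be read.

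**Figure D5:**
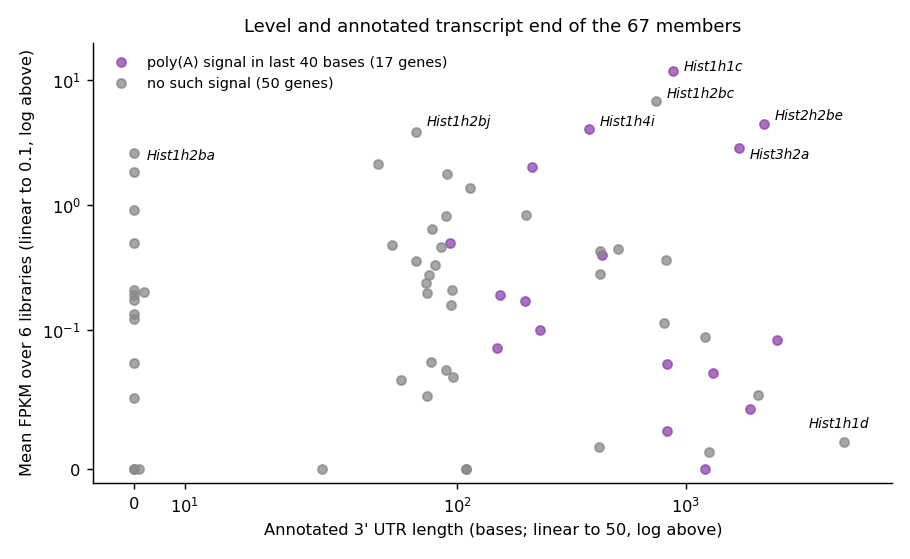
Mean FPKM over the 6 libraries (vertical axis, linear to 0.1 and log above) against annotated 3' UTR length in bases (horizontal axis, linear to 50 and log above) of the 67 members, coloured by a poly(A) signal in the last 40 bases. Hist1h1c, Hist2h2be, Hist3h2a and Hist1h4i, each with a signal, lie at the upper right beside Hist1h2bc, which has none, and members with an annotated 3' UTR of 0 bases include Hist1h2ba.

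Many members share near-identical sequence with other genes, which bears on how their lowest values can be read. Over 100-base windows, the median member shared 37.1% of its transcript with transcripts of other genes. The 7 members listed at 0 in all libraries (Hist1h2af, Hist2h2aa1, Hist2h2aa2, Hist2h2ab, Hist2h2bb, Hist2h3b and Hist2h3c1) shared between 59.7% and 100%, and 5 of the 7 had every window shared. All 7 also overlap another annotated gene. Hist1h2bq, with 100% of its windows shared, still held 15 fragments, so sharing alone did not go with a value of 0. The 12 tested members shared between 0% and 92.0%, with a median of 26.4%. Among the called members the share was 5.10% for Hist1h1c, 15.1% for Hist1h4i and 27.4% for Hist1h2ba. How reads with several matches, or in overlaps of genes, were counted was not stated in the sources used here. A value of 0 for a duplicated or overlapped gene may therefore stand for reads that were not counted.

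RNAs that normally carry no poly(A) tail were near 0 apart from a few. Over 20 such RNAs found in the table the summed FPKM was 27.1, 21.4 and 24.8 in the Ppp6r3 cKO libraries and 30.8, 22.2 and 22.2 in the wild-type libraries, overlapping between the groups. Most of this came from Rnu73b alone, at 21.5, 11.5 and 16.6 FPKM in Ppp6r3 cKO and 22.1, 15.3 and 16.8 FPKM in wild type. Rnu73b is short, which raises its FPKM, and it had 13 to 26 fragments per library. In fragments over all 6 libraries it held 120, beside 76 for Rn7sk and 74 for Terc. The 3 tested ones were not called (0 rose and 0 fell by limma and by voom, and 0 at an unadjusted p under 0.05). On the log2 scale, the telomerase RNA Terc differed by 0.39 (adjusted p = 0.624) and the small RNA Rnu73b by -0.15 (adjusted p = 0.738), both by limma.

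Factors that make and load histones, and S phase genes, were called in both directions, where 7.66% of all genes tested rose and 7.84% fell. Of 23 histone pre-mRNA processing factors, all tested, 1 rose, 4 fell and 18 were not called (median log2 fold change -0.06). SLBP was among those not called, at 24.7 FPKM in Ppp6r3 cKO and 26.1 FPKM in wild type on average (Slbp, log2 fold change -0.07, SE 0.0412, adjusted p = 0.261, limma). Zfp473, a zinc finger protein of the U7 machinery, fell by 0.80 on the log2 scale (adjusted p = 0.0157) from a low level, Ccne2, a cyclin of S phase entry, by 0.52 (adjusted p = 0.00137), and Nfya, a subunit of the CCAAT-binding factor, rose by 0.28 (adjusted p = 0.0184, all by limma). Of 26 histone chaperones and importers, 2 rose, 2 fell and 22 were not called, with Asf1b, which carries H3 and H4, lower by 0.47 on the log2 scale in Ppp6r3 cKO (log2 fold change -0.47, adjusted p = 0.00132) and Chaf1a, the large subunit of the replication-linked assembly factor, higher by 0.29 (adjusted p = 0.0193). Of 48 S phase genes, 4 rose, 10 fell and 34 were not called (median log2 fold change -0.04). With 1 library left out, whichever it was, the counts ranged for processing factors from 0 to 3 that rose and 2 to 4 that fell, for chaperones from 0 to 3 and 1 to 2, and for S phase genes from 2 to 5 and 5 to 8. No chaperone rose without wild-type library 1, 2 or 3, and no processing factor rose without Ppp6r3 cKO library 3 or wild-type library 2 or 3. The S phase genes that fell include the primase subunit Prim1 (-0.37, adjusted p = 0.00607) and the polymerase subunit Pole (-0.36, adjusted p = 0.00172, limma).

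Histone variants encoded outside the clusters were far more abundant in sum. Of 14 tested, 1 rose, 1 fell and 12 were not called, with a median log2 fold change of 0.00. These counts are near the shares over all genes tested, of which 7.66% rose and 7.84% fell. H3f3b, which encodes the replacement histone H3.3, averaged 470 ± 18.5 FPKM in Ppp6r3 cKO and 491 ± 2.25 FPKM in wild type (SD, n = 3 each; adjusted p = 0.283, limma). H2afv, an H2A.Z gene, rose by 0.20 on the log2 scale (adjusted p = 0.0485), at 86.7 FPKM in Ppp6r3 cKO and 75.4 in wild type. This call is marginal: 0 variants rose without Ppp6r3 cKO library 1 or 2 or any 1 wild-type library, with no filter, with a minimum of 0.5 FPKM or without robust estimation. H2bfm, an H2B family gene, fell by 0.87 on the log2 scale (adjusted p = 0.00896, limma), at 2.96 FPKM in Ppp6r3 cKO and 5.38 in wild type.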

How the data were processed

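RNA of whole testis was profiled on postnatal day 9 in 3 Ppp6r3 cKO and 3 wild-type libraries. The labels' protocols give TRIzol extraction and the KAPA Stranded mRNA-Seq kit. Selection on oligo(dT) beads and alignment of read pairs to mm10 by HISAT2 2.0.5 are given in the series' design text. DESeq2 appears in the submitters' processing notes without a role. The counting tool, its strand setting, the annotation release and the read length are not given in the sources used here.

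The values deposited by the authors are FPKM, although the table's name calls them raw counts. Each value times the GENCODE M21 exon length was a whole multiple of 1 fragment, within 0.01, for 31625 of the 32589 genes above 0 (97%), and for 933 more with another length. The 31 others were left out. All 67 members were whole. Depth was thus inferred, not stated.

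A gene was tested if 3 or more libraries held 10 or more of its recovered fragments. The test was limma 3.58.1 in R 4.3.3 on log2(FPKM + 0.1), with trend and robust estimation, two-sided, and Benjamini-Hochberg adjustment over 17653 genes. The fit was tested on simulated data. A fold change on this scale understates the change of low genes. An exact permutation test of 3 against 3 cannot go below p = 0.1 and was not used. Tables were made with Python 3.11.15. Named are members past the threshold, H1 and testis variant genes, the 3 highest of each core class and up to 3 genes per list. Members, lists and tests were chosen with earlier results of these data known, so counts over them are descriptions. Alternatives changed the model, pseudocount, filter, scaling, GC and length correction, moderation, block and libraries used. Sequence sharing was searched in transcripts only.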

Additional observations from a re-analysis of the deposited data

How the results depend on the processing

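Of the 12 tested members, the number that rose (2) was 0 with voom on recovered fragments, 0 with no filter on low values and 0 with the replicate block, and 0 to 2 with 1 library left out. The number that fell (1) was 2 with no filter and 2 with a minimum of 0.5 FPKM, which add Hist1h2ao, 0 with the replicate block, and 0 to 1 with 1 library left out, where fewer genes met the filter. Hist1h2ao reached 0.5 FPKM only in wild-type libraries, with 3 fragments in Ppp6r3 cKO and 19 in wild type. Its addition lends no support to a fall of the set. Over all genes tested, deviations of same-numbered libraries from their group means correlated at 0.0158, -0.0072 and -0.00622. With 3 libraries per group, such correlations cannot show whether the numbers pair libraries. Under the block the adjusted p was 0.0573 for Hist1h1c, 0.0528 for Hist1h4i and 0.0522 for Hist1h2ba. Over 16 other settings Hist1h1c was called in 9 (log2 fold change 0.18 to 0.27) and Hist1h4i in 9 (0.48 to 0.72), and Hist1h2ba in 12 of the 13 in which it was tested (-2.12 to -1.34). The median over tested members stayed between -0.070 and 0.101. The H2A sum difference of -1.99 FPKM was -0.137 with tested members only, since the untested ones were left out. Over all genes, 1352 rose and 1384 fell, against 2052 and 2011 with voom, 738 and 767 with no filter, 835 and 801 without wild-type library 1, 619 and 645 without 2 and 657 and 675 without 3. Otherwise the cause was not tested. Low fragment numbers limit most members.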
